A study of Mus musculus with 6 samples.

Results

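The genes described here are those that drive or restrain entry into the cell cycle from G1: the D cyclins Ccnd1, Ccnd2 and Ccnd3, the kinases Cdk2, Cdk4 and Cdk6, the phosphatase Cdc25a and the pocket proteins Rb1, Rbl1 and Rbl2. They were taken by symbol from the authors' array table, and all 10 were present, with 11 probe sets, among 22319 distinct gene symbols. The rule itself uses no measured value, but the members were chosen with earlier results of these data known. RNA came from mouse bone marrow cells that started as c-kit+ cells and had been transformed by MLL-AF9, the leukemogenic fusion of a histone methyltransferase with a transcription elongation partner. The 3 arrays labelled pMIG-TGIF1 carried a retroviral vector with TGIF1 and GFP, and the 3 pMIG arrays carried the same vector without TGIF1, so that MLL-AF9, the vector and GFP were common to both groups. Cells bearing GFP were sorted on day 3, cultured for 1 more day and measured in bulk on Affymetrix Mouse Gene 1.0 ST arrays. The labels do not say that replicates came from separate transductions, so the spread behind each p-value may be technical. They do not give the species of the TGIF1 sequence either.

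In G1, growth signals raise D cyclins, which activate CDK4 and CDK6. These kinases, followed by CDK2 with cyclin E, phosphorylate the pocket proteins and so release E2F transcription factors, which switch on the genes of DNA replication. CDK6 is well known as a dependency of MLL-fusion leukemia cells, in which the fusion protein binds its gene, and it also holds back myeloid differentiation.

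Of the 10 genes, 5 were lower and 2 higher in the arrays labelled pMIG-TGIF1, and 3 were not called. The steepest falls were those of Cdc25a (2.03-fold), Cdk6 (1.97-fold) and Rbl1 (1.94-fold), while Rbl2 fell 1.41-fold and Cdk2 1.29-fold. Ccnd2 rose 1.49-fold and Rb1 1.32-fold, whereas Ccnd1, Ccnd3 and Cdk4 did not pass the test. A gene was called at a limma p-value under 0.05 after Benjamini-Hochberg adjustment over all 25123 named probe sets. Calls were common on these arrays: 13.2% of the probe sets were called lower and 11.5% higher, and the groups did not overlap in 38.4%. The arrays did not overlap for 7 of the 10 genes, the same 7 that were called. In bulk RNA, fewer cells in a phase of the cycle and less transcript per cell cannot be told apart.

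Tgif1 itself went against the label. Its probe set read 239, 239 and 258 in the arrays labelled pMIG-TGIF1, against 320, 376 and 408 in the pMIG arrays (log2 fold change -0.58 ± 0.11 SE, limma adjusted p = 0.00286). The probes may lie outside the vector's TGIF1 sequence, which the files do not settle, so every direction given here rests on the labels. Array medians were 6.14 to 6.20 on the log2 scale in the arrays labelled pMIG-TGIF1 and 6.04 to 6.06 in pMIG. Centring each array on its median moved the median log2 fold change of all probe sets to -0.11, against 0.010 without it, and the share of calls that were higher to 29.9%, against 46.6%. Of 10 myeloid progenitor markers 6 fell and 1 rose, among them Kit, the gene of c-kit, with intensities of 295, 344 and 342 in the arrays labelled pMIG-TGIF1 and 474, 454 and 370 in pMIG (limma adjusted p = 0.0311). The leukocyte antigen gene Ptprc read 2470 to 3121 in the arrays labelled pMIG-TGIF1 and 1768 to 1869 in pMIG. Monocyte and macrophage markers rose in 4 of 9, and their summed intensity was 17000 to 18769 in the arrays labelled pMIG-TGIF1, against 9882 to 11015 in pMIG. Most of the rise of this sum came from the bright genes Cd14, Adgre1 and Cd68. The 5 others of the list, Csf1r, Itgam, C1qa, C1qb and Fcgr1, were not called. Of 8 mature neutrophil markers 4 rose and 1 fell. Among markers of other lineages the calls were 0 of 5 for B cells, 1 of 6 each for T and NK cells, megakaryocytes, mast cells and basophils, and stroma and endothelium, and 1 of 5 for erythroid cells. The platelet chemokine gene Pf4 of the megakaryocyte list was 18.2-fold higher, and the mast cell receptor gene Ms4a2 4.02-fold lower. With Pf4 the summed intensity of the megakaryocyte list was 1023 to 1287 in the arrays labelled pMIG-TGIF1, against 256 to 301 in pMIG, while its 5 other genes were not called. The part of these marker changes in the G1 gene results was not tested. The listed markers Ly6c2 and Hbb-bs were not analysed here.

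Promoter sequence was taken from RefSeq (GRCm38.p6) for 7 of the 10 genes, as windows from 250 bases before to 50 bases after a start site. Windows of Ccnd1, Ccnd2 and Rb1 were not used here. The 4 windows below belong to called genes, Cdc25a (chr9:109875329-109875628, plus strand), Rbl1 (chr2:157204485-157204784, minus strand), Cdk2 (chr10:128705002-128705301, minus strand) and Cdk6 (chr5:3343643-3343942, plus strand). They are shown 5′ to 3′ to compare E2F-type words, which stand in capitals.
Cdc25a: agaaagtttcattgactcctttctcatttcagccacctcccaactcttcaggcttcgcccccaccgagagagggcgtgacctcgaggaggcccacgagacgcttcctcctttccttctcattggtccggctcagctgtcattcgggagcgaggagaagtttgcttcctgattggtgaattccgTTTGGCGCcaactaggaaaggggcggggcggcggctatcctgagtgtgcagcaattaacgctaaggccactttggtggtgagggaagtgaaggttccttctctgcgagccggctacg
Rbl1: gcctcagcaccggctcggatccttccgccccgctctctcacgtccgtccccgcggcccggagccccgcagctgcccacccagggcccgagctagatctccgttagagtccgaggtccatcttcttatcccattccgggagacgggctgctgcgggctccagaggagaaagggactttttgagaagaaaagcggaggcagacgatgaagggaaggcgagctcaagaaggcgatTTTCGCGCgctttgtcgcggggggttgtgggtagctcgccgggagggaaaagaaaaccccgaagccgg
Cdk2: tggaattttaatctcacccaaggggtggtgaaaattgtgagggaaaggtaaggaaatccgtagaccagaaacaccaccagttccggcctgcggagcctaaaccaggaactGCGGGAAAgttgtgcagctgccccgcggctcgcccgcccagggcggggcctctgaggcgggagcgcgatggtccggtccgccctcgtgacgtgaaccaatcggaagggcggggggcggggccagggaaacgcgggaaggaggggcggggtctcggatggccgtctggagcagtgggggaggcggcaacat
Cdk6: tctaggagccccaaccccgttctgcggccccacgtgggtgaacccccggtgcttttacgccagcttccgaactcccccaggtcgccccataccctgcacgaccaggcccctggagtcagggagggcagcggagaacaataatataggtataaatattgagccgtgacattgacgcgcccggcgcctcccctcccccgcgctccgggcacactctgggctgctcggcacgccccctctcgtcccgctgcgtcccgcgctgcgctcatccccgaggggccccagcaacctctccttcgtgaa

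The E2F-type words searched were TTTCCCGC, TTTCGCGC, TTTGCCGC and TTTGGCGC, on both strands. One was found in Cdc25a (TTTGGCGC, first base at -67 from the start), in Rbl1 (TTTCGCGC, at -18) and in Cdk2 (TTTCCCGC on the other strand, read in the window as GCGGGAAA, at -140). Thus 3 of the 7 genes held such a word, against 2.60% of the 27025 genes in the table. All 3 were lower in the arrays labelled pMIG-TGIF1. The members called higher, Ccnd2 and Rb1, were not searched, so no gene called higher could hold a word. Whether such words go with the direction of change therefore cannot be read from these windows. None of the 4 words occurred in the windows of Cdk6 and Rbl2, which fell as well, or of Cdk4 and Ccnd3, which were not called. The word TTTGAA, the core of the element bound by MuvB complexes, occurred in 1 of the 7 (Rbl2, on the other strand), against 20.2% of all genes. The TGIF-type word CTGTCA occurred in 2 of the 7 (Cdc25a and the second of the Ccnd3 windows), against 21.6%. No match of one motif overlapped a match of another in these windows. The matches describe letters in a window and not binding.

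**Figure D1:**
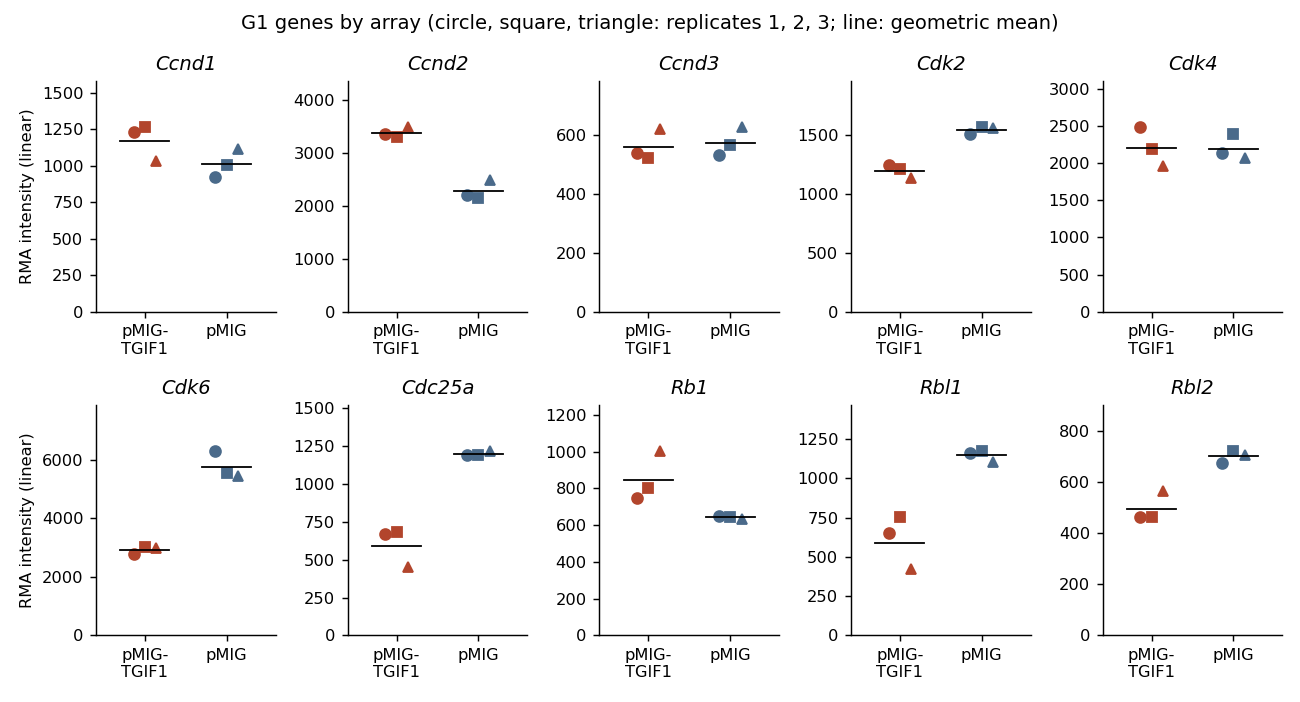
RMA intensity (linear axis from 0) of each of the 10 genes in the 3 arrays labelled pMIG-TGIF1 (red) and the 3 pMIG arrays (blue), with replicate shown by symbol and a line at the geometric mean. Cdk6 lies between 2772 and 3018 in the arrays labelled pMIG-TGIF1 and between 5446 and 6297 in pMIG, and replicate 3 of the arrays labelled pMIG-TGIF1 is the lowest for Cdc25a (454) and Rbl1 (421) and the highest for Rb1 (1004).

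Among the D cyclins, the regulatory subunits that activate CDK4 and CDK6, only Ccnd2 was called. Its intensities were 3363, 3300 and 3487 in the arrays labelled pMIG-TGIF1, against 2202, 2153 and 2483 in the pMIG arrays. The groups did not overlap, and the 3 arrays labelled pMIG-TGIF1 lay close together. Ccnd2 rose 1.49-fold (95% CI 1.29 to 1.72, log2 0.57 ± 0.0946 SE, limma adjusted p = 0.00129), and it remained called under each alternative tried.

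Ccnd1 read 1229, 1265 and 1030 in the arrays labelled pMIG-TGIF1 and 925, 1003 and 1117 in pMIG. The groups overlapped, with replicate 3 of the arrays labelled pMIG-TGIF1 below replicate 3 of pMIG. The ratio was 1.16 (95% CI 0.971 to 1.38, limma adjusted p = 0.236), so a rise of up to that upper bound is within the error. Ccnd3 read 537, 521 and 619 in the arrays labelled pMIG-TGIF1 and 531, 565 and 625 in pMIG. Its ratio was 0.974 (95% CI 0.827 to 1.15, limma adjusted p = 0.857), and its small log2 difference of -0.038 became 0.042 with renewed quantile normalization. Neither test shows that these cyclins stayed the same.

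Of the 3 kinases, Cdk6 and Cdk2 fell and Cdk4 was not called. Cdk6, one of the partners of the D cyclins, read 2772, 3018 and 2982 in the arrays labelled pMIG-TGIF1, against 6297, 5550 and 5446 in the pMIG arrays. The gap between the groups was far wider than the spread within either. Cdk6 fell 1.97-fold (95% CI 1.70 to 2.29, log2 -0.98 ± 0.0970 SE, limma adjusted p = 5.40e-05). By log2 fold change it ranked 432 from the lowest of 25123 probe sets, and leaving out each array in turn kept it between -1.02 and -0.91.

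Cdk4, the other partner of the D cyclins, read 2483, 2184 and 1965 in the arrays labelled pMIG-TGIF1 and 2135, 2390 and 2071 in pMIG. The groups overlapped throughout. The ratio was 1.00 (95% CI 0.845 to 1.19, limma adjusted p = 0.987), and the log2 difference of 0.0041 became -0.11 with each array centred on its median.

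Cdk2, which acts with cyclins E and A later in G1 and in S phase, read 1243, 1212 and 1134 in the arrays labelled pMIG-TGIF1, against 1506, 1566 and 1560 in pMIG. All arrays of the first group lay below all of the second. The fall was modest, 1.29-fold (95% CI 1.13 to 1.48, log2 -0.37 ± 0.0887 SE, limma adjusted p = 0.0110).

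Cdc25a encodes the phosphatase that removes inhibitory phosphates from CDK2 and other cell cycle kinases. It read 668, 685 and 454 in the arrays labelled pMIG-TGIF1, against 1190, 1194 and 1219 in pMIG. The pMIG arrays were nearly alike (SD 0.0187 on the log2 scale), while those labelled pMIG-TGIF1 spread more (SD 0.332), with replicate 3 below the others. Cdc25a fell 2.03-fold (95% CI 1.62 to 2.54, log2 -1.02 ± 0.15 SE, limma adjusted p = 0.000548), the lowest log2 fold change of the 10 genes. Without replicate 3 of the arrays labelled pMIG-TGIF1 the log2 fold change was -0.83 (limma adjusted p = 0.000141).

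The pocket proteins moved in opposite directions. Rb1, which encodes the retinoblastoma protein and restrains the activating E2F factors, read 748, 803 and 1004 in the arrays labelled pMIG-TGIF1, against 651, 645 and 632 in pMIG. Every array labelled pMIG-TGIF1 lay above every pMIG array, and replicate 3 was the highest. Rb1 rose 1.32-fold (95% CI 1.10 to 1.57, log2 0.40 ± 0.12 SE, limma adjusted p = 0.0305). The call was lost without replicate 3 of the arrays labelled pMIG-TGIF1 (log2 0.27, adjusted p = 0.0760) and without pMIG replicate 1 (0.40, adjusted p = 0.0752), pMIG replicate 2 (0.40, adjusted p = 0.0798) or pMIG replicate 3 (0.38, adjusted p = 0.0961). It was also lost with array median centring (0.28, adjusted p = 0.0887).

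Rbl1 encodes p107, a pocket protein that partners repressive E2F factors in cycling cells and is itself a known E2F target. Its brighter probe set read 653, 752 and 421 in the arrays labelled pMIG-TGIF1, against 1164, 1176 and 1107 in pMIG. As with Cdc25a, replicate 3 of the arrays labelled pMIG-TGIF1 was the lowest. Rbl1 fell 1.94-fold (95% CI 1.47 to 2.56, log2 -0.96 ± 0.18 SE, limma adjusted p = 0.00277), or by 0.71 on the log2 scale without replicate 3 (adjusted p = 0.000676). A dim Rbl1 probe set, annotated to a GenBank rather than a RefSeq record, read 39.0, 36.3 and 46.8 in the arrays labelled pMIG-TGIF1 and 42.0, 42.0 and 46.1 in pMIG and was not called (log2 -0.099 ± 0.11 SE, adjusted p = 0.613).

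Rbl2 encodes p130, the pocket protein best known from quiescent cells, where it represses cell cycle genes together with E2F4. It read 462, 464 and 566 in the arrays labelled pMIG-TGIF1, against 673, 722 and 706 in pMIG. The groups did not overlap, and here replicate 3 was the array nearest to pMIG. Rbl2 fell 1.41-fold (95% CI 1.20 to 1.66, log2 -0.50 ± 0.11 SE, limma adjusted p = 0.00550). The calls of Rbl1 and Rbl2 were lost without moderation of the variances (adjusted p = 0.0907 and adjusted p = 0.0546), as was that of Rb1 (adjusted p = 0.135). In the authors' deposited table the fold changes were -1.97 for Cdk6, -2.03 for Cdc25a, -1.94 for Rbl1, 1.49 for Ccnd2 and 1.32 for Rb1. These values rest on the same intensities as the fit here, so they are not separate evidence.

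**Figure D2:**
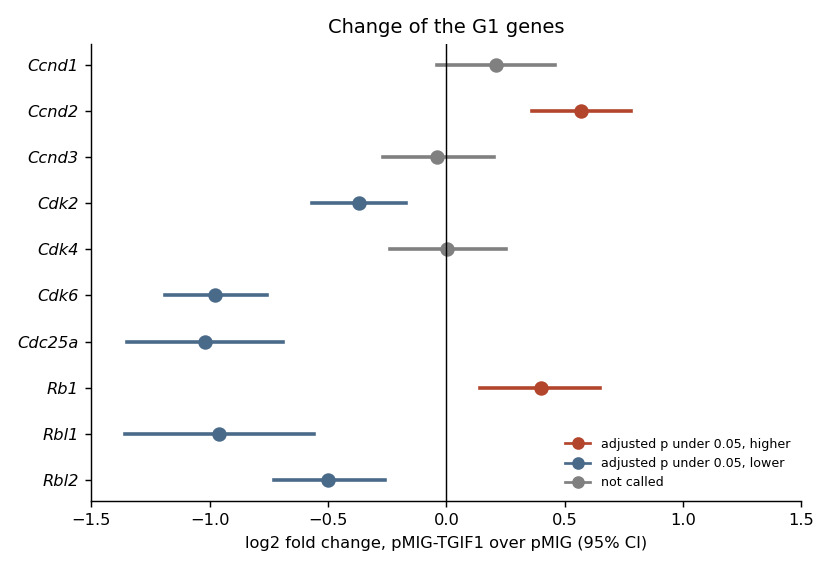
Log2 fold change of pMIG-TGIF1 over pMIG (x axis) for each gene, with the 95% confidence interval of the limma fit. Cdk6 (-0.98), Cdc25a (-1.02) and Rbl1 (-0.96) lie farthest to the left, Ccnd2 (0.57) and Rb1 (0.40) lie to the right of 0, and the intervals of Ccnd1, Ccnd3 and Cdk4 cross 0.

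Whether related genes changed unequally was examined through 9 within-array ratios, tested with an exact two-sided permutation test over the 6 arrays. With 20 assignments the smallest p that this design allows is 0.1, so no pair could pass. The groups did not overlap for 7 of the 9 ratios, and each of these 7 had that exact p, or 0.129 after Benjamini-Hochberg adjustment over the 9 pairs. Single probe sets did not overlap in 38.4%, and the share for ratios of other pairs was not computed. The ratios are built from the same member values as above, so this count is not separate from the calls of the members.

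The ratio of Cdk4 to Cdk6 was higher by 0.98 on the log2 scale in the arrays labelled pMIG-TGIF1. With the pMIG mean set to 0, it lay at 1.23, 0.92 and 0.79 in the arrays labelled pMIG-TGIF1 and at -0.17, 0.17 and 0.00 in pMIG (exact permutation p = 0.1). The ratio of Cdk2 to Cdk6 was higher by 0.61 and that of Cdk2 to Cdk4 lower (-0.37). The groups did not overlap for any of these kinase ratios.

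Among D cyclins the ratio of Ccnd2 to Ccnd3 was higher by 0.61 and that of Ccnd1 to Ccnd2 lower (-0.36), again with no overlap. The ratio of Ccnd1 to Ccnd3 overlapped between groups (0.25, exact permutation p = 0.4), since replicate 3 of the arrays labelled pMIG-TGIF1 lay at -0.09 and the other two at 0.37 and 0.46.

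The ratio of Rb1 to Rbl2 gave the tightest separation among pocket proteins, at 0.82, 0.91 and 0.95 in the arrays labelled pMIG-TGIF1 and 0.08, -0.04 and -0.04 in pMIG, a difference of 0.89. For Rb1 to Rbl1 the difference was 1.35, with 1.03, 0.93 and 2.09 in the arrays labelled pMIG-TGIF1, and it was 0.98 without replicate 3 of these. Rbl1 to Rbl2 overlapped (-0.46, exact permutation p = 0.2, and -0.12 without replicate 3). A ratio shows unequal change only, and levels of different probe sets were not compared.

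**Figure D3:**
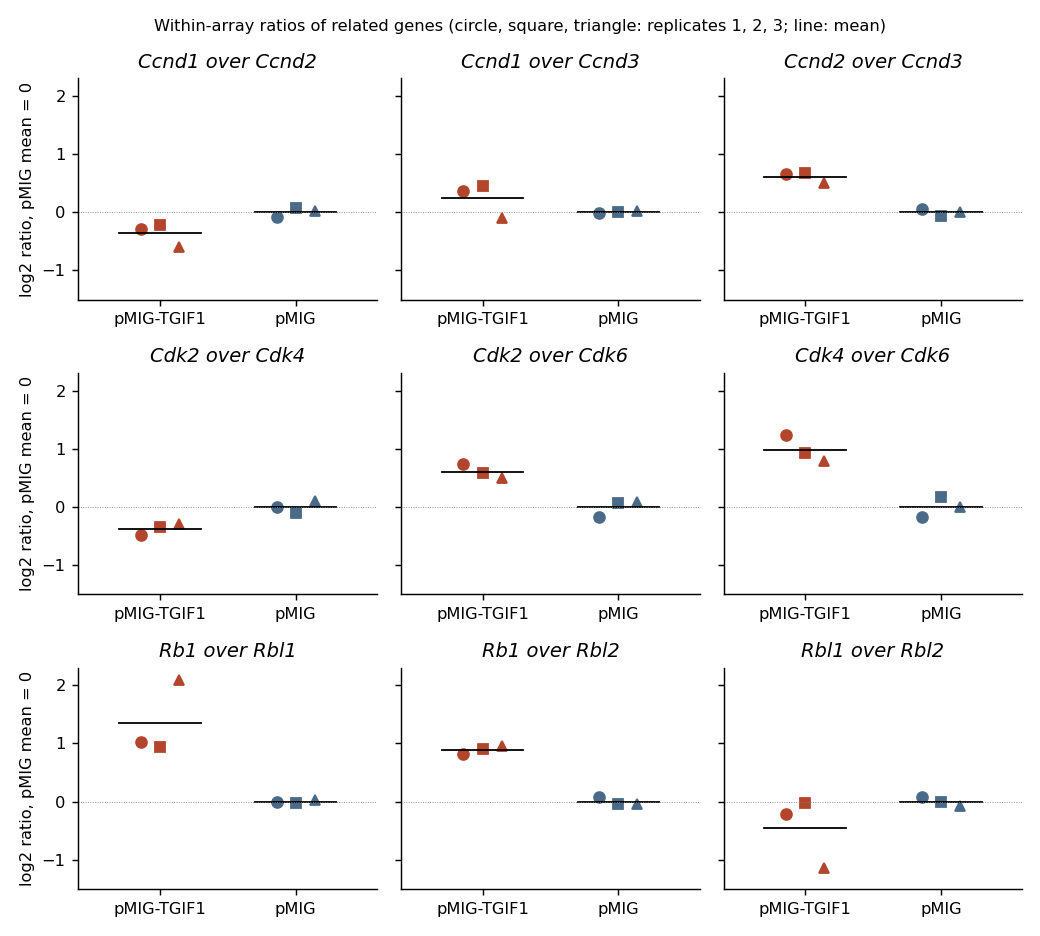
Log2 ratio of each pair of related genes within an array (y axis, pMIG mean set to 0) in the arrays labelled pMIG-TGIF1 (red) and in pMIG (blue), with a line at each mean. The ratio of Rb1 to Rbl2 stays between 0.82 and 0.95 in the arrays labelled pMIG-TGIF1, while replicate 3 (triangle) stands apart for Rb1 to Rbl1 (2.09) and Rbl1 to Rbl2 (-1.14).

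Around these 10 genes, 48 other genes of the G1/S machinery in 6 lists were all measured. Of them 24 fell and 6 rose, with a median log2 fold change of -0.40, against 0.010 over all probe sets tested. Over all probe sets 13.2% were called lower and 11.5% higher, and the counts of each list below are to be read beside these shares. In the smaller lists 1 or 2 calls in a direction are near them. The lists, too, were chosen with earlier results of these data known. Without replicate 3 of the arrays labelled pMIG-TGIF1, 23 fell and 6 rose, and without moderation of the variances 10 fell and 5 rose.

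Of the 8 cyclin E, cyclin A and CDK subunit genes, 5 fell and 0 rose (median -0.74). The S-phase cyclin Ccna2 read 1209, 1251 and 1048 in the arrays labelled pMIG-TGIF1, against 1975, 2112 and 2070 in pMIG (log2 -0.82 ± 0.0992 SE, limma adjusted p = 0.000188). Cdk1, the mitotic kinase, fell by 0.85 on the log2 scale, and the small CDK-binding proteins Cks2 and Cks1b by 0.82 and 0.67. Of the cyclin E genes, whose products partner CDK2 in late G1, Ccne2 fell (log2 -1.14 ± 0.21 SE, limma adjusted p = 0.00234). Ccne1 was not called (-0.24 ± 0.19 SE, adjusted p = 0.453), and the difference between them was not tested.

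CDK inhibitors split, with 4 of 7 higher and 2 lower (median 0.42). Cdkn1a, which encodes p21 and inhibits CDK2 complexes, read 2189, 2360 and 3268 in the arrays labelled pMIG-TGIF1, against 1357, 1590 and 1738 in pMIG (log2 0.72 ± 0.15 SE, limma adjusted p = 0.00565, and adjusted p = 0.104 without moderation). Cdkn2b, an INK4 inhibitor of CDK4 and CDK6 known as a TGF-beta target, read 202, 219 and 231 in the arrays labelled pMIG-TGIF1, against 136, 133 and 121 in pMIG (0.74 ± 0.0969 SE, adjusted p = 0.000298). Cdkn1c (0.48 ± 0.10 SE) and Cdkn2a (0.42 ± 0.0938 SE) rose as well, and the Cdkn2a symbol covers the transcripts of both p16 and ARF. The other INK4 genes went the other way: Cdkn2c fell by 0.47 (adjusted p = 0.0261) and Cdkn2d by 0.54 (adjusted p = 0.0397). Without pMIG-TGIF1 replicate 1 or 2, or pMIG replicate 2 or 3, or without moderation, neither of these falls was called, and 1 was called without pMIG replicate 1 or with quantile normalization. Both probe sets of Cdkn1b, the gene of p27, were not called.

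Of 10 E2F and DP genes, 5 fell and 0 rose (median -0.35). E2f8 and E2f7, which encode atypical repressors, fell by 1.10 and 0.84 on the log2 scale (limma adjusted p = 0.000864 and adjusted p = 0.00507), E2f6, another repressor, by 0.60 and the activator E2f3 by 0.56. The second probe set of E2f3 was not called (-0.33 ± 0.21 SE, adjusted p = 0.327). The activators E2f1 and E2f2 narrowly missed the threshold in opposite directions, E2f1 at -0.27 (adjusted p = 0.0577) and E2f2 at 0.23 (adjusted p = 0.0897), and E2f4 was not called (-0.11, adjusted p = 0.562). Without moderation of the variances 0 genes of this list were called lower, with E2f8, E2f3, E2f7 and E2f6 at adjusted p = 0.0609 to adjusted p = 0.120. In that setting 1 gene of the list was called higher, as was 1 with quantile normalization and 1 without pMIG replicate 2.

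Among the 7 genes that switch CDKs on or off by phosphorylation, 4 fell and 0 rose (median -0.53). Cdc25c, a relative of Cdc25a that acts at mitosis, read 97.3, 133 and 113 in the arrays labelled pMIG-TGIF1, against 282, 256 and 255 in pMIG (log2 -1.22 ± 0.12 SE, limma adjusted p = 5.31e-05). The opposing kinases Pkmyt1 and Wee1, which add the phosphates that CDC25 enzymes remove, fell by 0.81 and 0.66. Ccnh, a subunit of the CDK-activating kinase, fell by 0.53, while its catalytic partner Cdk7 was not called (-0.013, adjusted p = 0.953). Cdc25b, the remaining CDC25 gene, was not called either (0.16, adjusted p = 0.490). With no moderation of the variances 2 genes of this list were called lower. Pkmyt1 (adjusted p = 0.0642) and Ccnh (adjusted p = 0.0532) then lost their calls.

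In the SCF and APC/C turnover list 3 of 9 fell and 2 rose (median -0.010). Skp2, the F-box protein that targets p27 for degradation, fell by 0.82 (limma adjusted p = 0.000525), and Cdc20, an activator of the APC/C in mitosis, by 0.80. Fbxw7, the F-box protein for cyclin E and MYC, rose (log2 0.51 ± 0.11 SE, adjusted p = 0.00680). Fbxo4, another F-box gene, rose the most in the 6 lists, with 570, 553 and 652 in the arrays labelled pMIG-TGIF1, against 215, 291 and 247 in pMIG (log2 1.24 ± 0.12 SE, adjusted p = 5.50e-05). With no moderation of the variances 2 genes of this list were called lower and 1 higher. Cdc20 (adjusted p = 0.0618) and Fbxw7 (adjusted p = 0.0713) then lost their calls.

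Of 7 genes of the MuvB core, which joins p107 or p130 in the DREAM repressor complex and B-Myb in an activator, and its partners, 5 fell and 0 rose (median -0.72). Mybl2, which encodes B-Myb, read 431, 486 and 290 in the arrays labelled pMIG-TGIF1, against 1146, 949 and 959 in pMIG (log2 -1.37 ± 0.17 SE, limma adjusted p = 0.000242). The MuvB subunits Lin54 and Lin9 fell by 1.15 and 0.72, and Foxm1, a driver of mitotic genes, by 0.74. With no moderation of the variances 2 genes of this list were called lower, and Lin9 lost its call (adjusted p = 0.0664). As with Cdc25a and Rbl1, replicate 3 of the arrays labelled pMIG-TGIF1 was the lowest array for Mybl2, E2f7 and E2f8, and for Cdkn1a it was the highest. It was also the lowest for other genes of the lists, such as Ccne2, Skp2, Cdc20 and Ccna2, but not for Cdk1, Cdc25c or Lin9. In the fit with array weights, where a low weight marks an array that strays from its group, it had 0.56. The other arrays had 0.98 to 1.52.

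**Figure D4:**
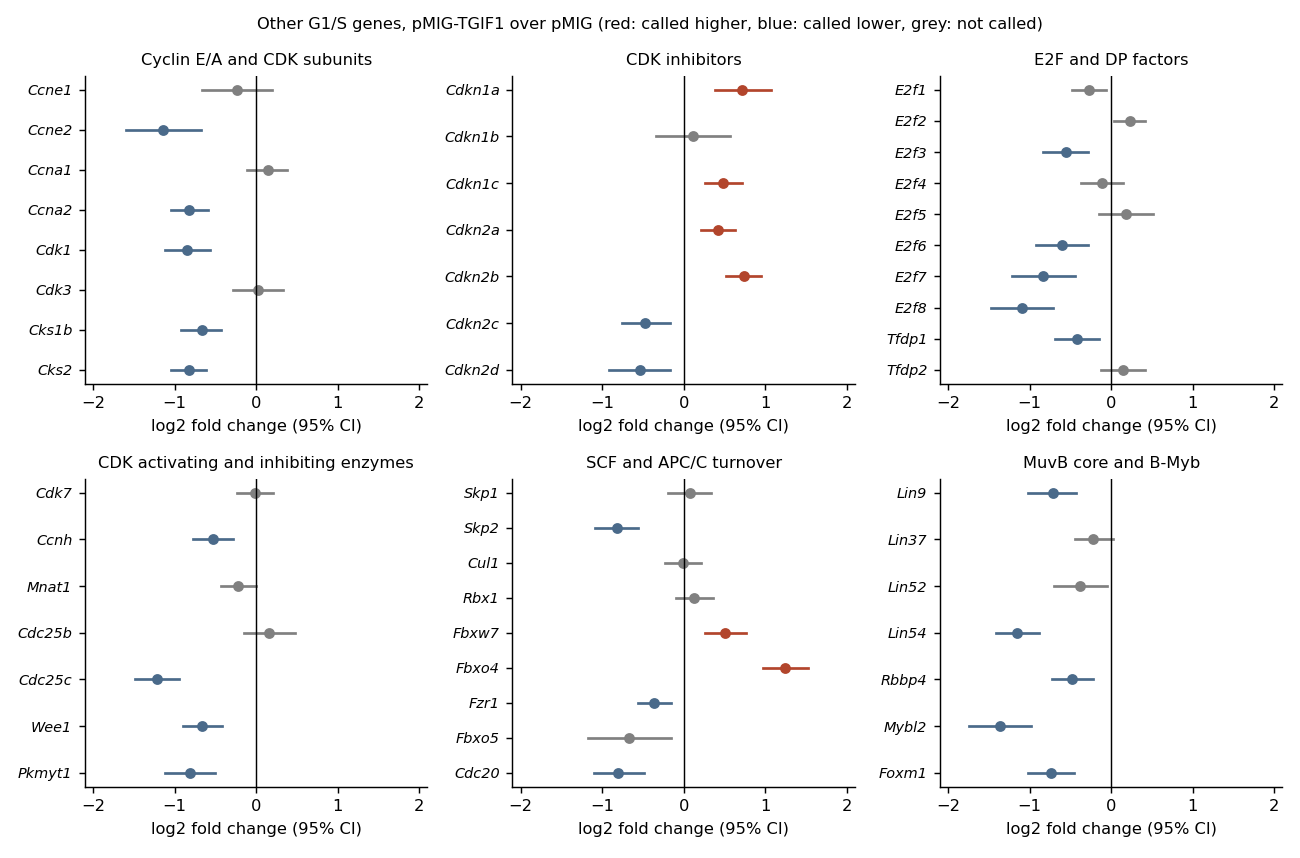
Log2 fold change of pMIG-TGIF1 over pMIG (x axis) with 95% confidence intervals for the 48 other genes of the G1/S machinery, in 6 lists. Of these 24 were called lower (blue) and 6 higher (red), and the red points are 4 CDK inhibitors and the F-box genes Fbxw7 and Fbxo4.

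The profiles most like that of Ccnd2, the member with the largest rise, over the 6 arrays belonged to the chemokine gene Ccl6 (Pearson r = 0.9986), Flacc1 (0.9985) and the nucleic acid sensor gene Tlr7 (0.9979). For Cdc25a, the member with the largest fall, they belonged to the replication licensing gene Cdc6 (0.9992), the histone methyltransferase gene Nsd2 (0.9989) and the gamma-tubulin gene Tubg1 (0.9988). These values describe 6 arrays in 2 separate groups, so much of each correlation is the difference between the groups. Cdc6 fell by 1.22 on the log2 scale (limma adjusted p = 0.000593), and Ccl6 was higher by 1.49 (adjusted p = 1.79e-05).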

How the data were processed

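For each of the 3 arrays labelled pMIG-TGIF1 and the 3 pMIG arrays, 300 ng of total RNA was amplified and labelled with biotin, as the labels' protocols state. The authors deposited linear intensities, 1 per probe set, and the submitters' processing notes name Partek and RMA, which background-corrects, normalizes and summarizes probes. Versions, settings and the annotation build are not given in the sources used here. Both deposited tables held the same intensities (largest difference 0). The authors' deposited p-value and signed fold change, a score that never lies between -1 and 1, were only quoted.

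Of 28853 probe sets, 25123 carried a symbol, updated through RefSeq names, and the 3730 others were left out. The linear model of limma 3.58.1 (R 4.3.3) with empirical Bayes moderation was run on log2 intensities of the 6 arrays, as pMIG-TGIF1 minus pMIG, with no filter and no block. The limma script was tested on simulated data. Where a gene had several probe sets, the brightest stood for it. Named were all 10 members, Tgif1, up to 4 genes per list with the smallest p, and the 3 profiles most like the largest rise and the largest fall. Other list genes and markers named as examples were chosen after their values were seen. The members and lists were chosen with earlier results of these data known. The number of arrays limits the precision.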

Additional observations from a re-analysis of the deposited data

How the results depend on the processing

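The alternatives were the replicate block, an intensity trend with robust prior, no moderation, quantile normalization, array median centring, leaving out the dimmest 30%, testing all probe sets, array weights, the series matrix table and leaving out each array. The 5 falls among the 10 genes kept their calls in all of these except without moderation. There 3 members were called lower and 1 higher, with 1754 probe sets higher and 1647 lower over all and 10 pathway genes lower, against 24. With array median centring 1 member was called higher, with 5007 probe sets lower over all, against 3308. Leaving out each array gave 1 to 2 members higher, 5 lower, 2323 to 2724 probe sets higher and 2537 to 3187 lower, and 21 to 23 pathway genes lower. Of 540 values of 36 named probe sets, 514 kept direction and call, 19 lost the call (14 of them without moderation) and 7 changed sign. The pathway genes among the 36 were those with the smallest p of the main fit in each list. They were thus picked for strong calls in these same data. Cdkn2c and Cdkn2d, whose falls lost their calls in several settings, were not among them. The count of 514 therefore does not describe genes with weaker calls. Part of this agreement was fixed in advance. The series matrix table held the same intensities, so its values could not differ. The replicate block, the intensity trend with robust prior and the fit without moderation could change a call but not a log2 fold change. The same held for leaving out the dimmest 30% and for testing all probe sets. The sign changes were those of Ccnd3 (0.042 with quantile normalization, -0.11 to 0.025 with each array left out) and Cdk4 (-0.11 with centring, -0.083 to 0.086 with each array left out), which were not called. The cause of these changes was not tested. With the replicate block 5536 probe sets were called (2579 higher, 2957 lower), and 2 members higher and 5 lower, so it changed no call among the 10 genes. The deviations of same-numbered arrays correlated at -0.19 to -0.0485, and 0 of 3 arrays labelled pMIG-TGIF1 correlated best with their own number. The data thus showed no sign that the numbers pair the arrays. With 3 arrays in each group this check cannot exclude pairing. The paired form of the 9 ratio tests has the same differences by arithmetic. The smallest exact p it allows is 0.25, so no pair could pass in this form either.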
